A study of Mus musculus with 12 samples.

Results

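Transcript levels of 9 mouse genes of the lipoxygenase and leukotriene pathway were followed in dorsal skin: Alox5, Alox5ap, Lta4h and Ltc4s, which make leukotrienes, the leukotriene B4 receptor gene Ltb4r1, and the lipoxygenase genes Alox12, Alox12e, Alox15 and Alox8. The genes were taken by an exact match of their symbols in both deposited tables, which gave 9 of 55401 genes. The rule used symbols and no measured values. The study combined chronic restraint stress with an imiquimod model of psoriasis-like skin to ask how psychological stress bears on psoriasis. All 12 libraries were RNA-seq of dorsal skin from C57BL/6J mice taken on day 29, with 3 libraries in each of 4 groups. The groups were mice given both chronic restraint stress and imiquimod (CRS+IMQ), mice given imiquimod without stress (IMQ), mice stressed without imiquimod (CRS), and untreated mice (control). The strain, tissue and day were thus shared by every group. The dose and schedule of imiquimod, any vehicle, and whether the 3 samples of a group came from separate animals were not given in the labels.

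Leukotrienes are lipid mediators made from arachidonic acid. 5-lipoxygenase, encoded by Alox5, works with its membrane partner, encoded by Alox5ap, to form leukotriene A4, mainly in myeloid cells and mast cells. Lta4h then yields leukotriene B4, which attracts neutrophils through the receptor encoded by Ltb4r1, whereas Ltc4s starts the branch to the cysteinyl leukotrienes. The other lipoxygenases add oxygen at other carbons of fatty acids, and several are expressed in the epidermis.

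Levels are given as FPKM, fragments scaled by transcript length and by the mapped total of the library, as deposited. Library totals estimated from the spacing of the lowest values lay between 19050000 and 21000000 fragments, and 13248 to 13753 genes per library reached 1 FPKM. Keratinocyte markers of the labelled tissue were present, and the 10 granular ones summed to 384 FPKM or more in every library. The stressed groups had a smaller spread than the others, with a median coefficient of variation of 3.57 percent in CRS+IMQ, 14.9 percent in IMQ, 4.61 percent in CRS and 16.4 percent in controls. Counting error alone would give 2.97 to 3.08 percent in the 4 groups. Both used 468 to 586 genes per group with 1 annotated transcript and a mean of at least 500 estimated fragments. Over these genes the variance averaged 35.9 times that of counting in CRS+IMQ, 272.7 in IMQ, 53.3 in CRS and 336.2 in controls, so no group was at counting error alone. Tests under the 1 FPKM filter were therefore repeated with CRS as a single averaged sample and CRS+IMQ likewise. Differences are of log2(FPKM + 1), a scale that understates the change of low genes, with adjusted p-values from limma with Benjamini-Hochberg adjustment over all genes tested. Genes were tested where at least 3 libraries of a comparison reached 1 FPKM, and a call is an adjusted p under 0.05. In whole tissue, fewer cells of a type and less RNA per cell cannot be told apart.

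The promoters of Alox5 and Ltb4r1 are shown beside that of Alox12e. Alox5 and Ltb4r1 both had lower means with stress alone and higher means with stress during imiquimod. For Alox5 these directions were set by the filter, as described below. Alox12e was lower with stress in both settings. RefSeq windows of 250 bases before to 50 bases after the annotated start matched 7 of the 9 genes, all but Alox5ap and Alox15. The 250 bases before the start are printed 5′ to 3′ on the strand of the gene from GRCm38.p6, at chr6:116461179-116461428 (minus strand) for Alox5, chr14:55765712-55765961 (plus strand) for Ltb4r1 and chr11:70322531-70322780 (minus strand) for Alox12e. Capitals mark matches, on either strand, to any of 5 short motifs that were searched.
Alox5: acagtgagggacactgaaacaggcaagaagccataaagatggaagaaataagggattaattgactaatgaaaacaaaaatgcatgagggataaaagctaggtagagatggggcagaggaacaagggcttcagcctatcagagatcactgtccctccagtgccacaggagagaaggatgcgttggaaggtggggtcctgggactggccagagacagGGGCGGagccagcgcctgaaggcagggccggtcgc
Ltb4r1: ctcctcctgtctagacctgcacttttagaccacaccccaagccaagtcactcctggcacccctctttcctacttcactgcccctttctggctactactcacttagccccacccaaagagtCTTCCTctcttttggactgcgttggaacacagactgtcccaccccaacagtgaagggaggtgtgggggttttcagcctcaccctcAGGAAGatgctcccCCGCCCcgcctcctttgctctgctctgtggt
Alox12e: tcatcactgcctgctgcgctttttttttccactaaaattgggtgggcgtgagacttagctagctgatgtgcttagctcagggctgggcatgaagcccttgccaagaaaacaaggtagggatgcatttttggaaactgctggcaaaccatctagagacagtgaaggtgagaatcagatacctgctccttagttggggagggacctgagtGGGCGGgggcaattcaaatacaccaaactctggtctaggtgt
The motifs were the glucocorticoid receptor half-site AGAACA, the AP-1 site TGANTCA, the ETS core AGGAAG, the TATA box TATAAA and the GC box GGGCGG. Their shares among 32851 promoter windows of the same length were 19 percent, 7.81 percent, 35.4 percent, 13.6 percent and 35.7 percent in that order. The Alox5 and Alox12e windows each held 1 GC box, beginning at -35 and -42 relative to the start. The Ltb4r1 window held 3 ETS cores, beginning at -130, at -45 and 1 base after the start, and 1 GC box at -31, and none of these matches overlap. Among the windows not printed, that of Alox12 held 1 half-site and 3 GC boxes, that of Alox8 held 3 ETS cores and 1 GC box, that of Ltc4s held 2 ETS cores, and that of Lta4h held none of the 5 motifs. A match is only a run of letters in the window.

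With stress alone, the pathway genes tested were lower in CRS skin than in control skin. In that comparison 7 of the 9 genes were tested and 7 were lower, beside 28.4 percent of all 13944 genes tested that were lower and 15.3 percent that were higher. Of the calls over all genes 35 percent were higher, a share that turned to 56.2 percent under quantile normalization, where 6 of the 7 genes were still called lower. The median log2 difference was -1.71 over the 7 genes and -0.09 over all genes. With stress during imiquimod, the 7 genes split: 3 were higher in CRS+IMQ skin than in IMQ skin and 1 was lower, beside 18.7 percent of 13981 genes higher and 18.2 percent lower, with medians of 0.18 over the 7 genes and -0.07 over all genes. Alox5 passed the filter only through its control libraries in the first comparison and in IMQ against control, and only through its CRS+IMQ libraries in the second and in CRS+IMQ against CRS, so its direction was set by its entry and its values are to be read as a description. Alox15 and Alox8 did not pass the filter in any comparison.

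**Figure D1:**
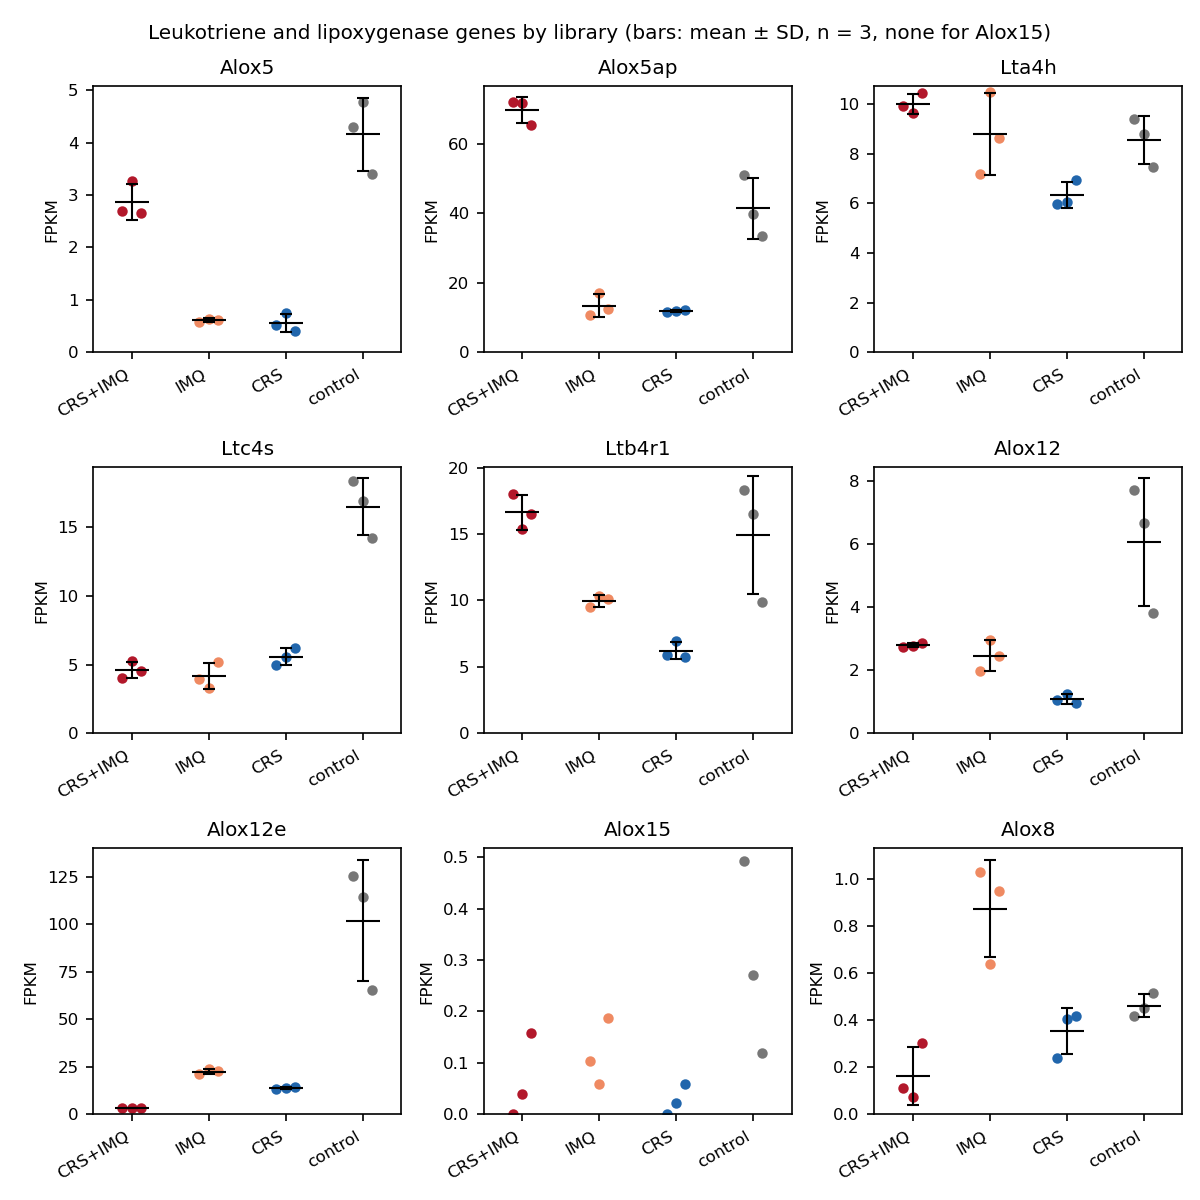
FPKM of the 9 genes (vertical axes, linear, from 0) in each library of the 4 groups, with the mean and SD of 3 libraries where drawn. Alox5 and Alox5ap are high in CRS+IMQ and control skin and low in IMQ and CRS skin, whereas Alox12e has its lowest level, 3.27 FPKM on average, in CRS+IMQ skin.

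Alox5 lies at chr6:116410077-116461178 on the minus strand (mm10). Its levels were 0.515, 0.744 and 0.407 FPKM in the CRS libraries, against 4.30, 4.78 and 3.40 FPKM in the control libraries. All CRS libraries lay below all control libraries, and the mean was 7.49-fold lower in CRS skin. The log2 difference was -1.73 with an SE of 0.136 and an adjusted p of 0.000363 (limma). During imiquimod the direction was opposite: Alox5 had 2.69, 3.27 and 2.65 FPKM in the CRS+IMQ libraries, against 0.572, 0.642 and 0.613 FPKM in the IMQ libraries. These groups did not overlap either, and the mean was 4.71-fold higher in CRS+IMQ skin (log2 difference 1.26, SE 0.0929, adjusted p = 0.000221, limma). Ordered by level, control skin was first, CRS+IMQ skin second without overlap, and IMQ and CRS skin shared the lowest range.

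Alox5ap, at chr5:149264767-149288153 on the plus strand, encodes the protein that presents arachidonic acid to 5-lipoxygenase, and it had the highest level of the 5 leukotriene genes followed here. It had 11.5, 11.8 and 12.1 FPKM in CRS skin, against 51.0, 39.7 and 33.6 FPKM in control skin. No CRS library reached the lowest control library, and the mean was 3.51-fold lower in CRS skin, with a log2 difference of -1.71 (SE 0.152, adjusted p = 0.000509, limma). In CRS+IMQ skin it had 72.0, 71.7 and 65.3 FPKM, against 10.8, 17.1 and 12.4 FPKM in IMQ skin. The CRS+IMQ libraries were the highest of all 12, and the mean was 5.18-fold higher than in IMQ skin, with a log2 difference of 2.31 (SE 0.164, adjusted p = 0.000204, limma). The IMQ and CRS ranges overlapped at the low end. Alox5ap thus followed the same order as Alox5 except that CRS+IMQ skin stood above control skin.

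Lta4h, at chr10:93453411-93484875 on the plus strand, encodes the hydrolase that forms leukotriene B4. Its levels varied less: 6.00, 6.05 and 6.95 FPKM in CRS skin, against 9.39, 8.79 and 7.49 FPKM in control skin. The groups did not overlap, the mean was 1.35-fold lower in CRS skin, and the log2 difference was -0.38 (SE 0.105, adjusted p = 0.0281, limma). That call was lost under several alternatives, with adjusted p = 0.107 after quantile normalization and 0.0959 without CRS replicate 1. Lta4h had 9.94, 9.65 and 10.5 FPKM in CRS+IMQ skin, against 7.21, 10.5 and 8.66 FPKM in IMQ skin, and these ranges overlapped. The log2 difference there was 0.18 with an SE of 0.134 (adjusted p = 0.324, limma), and it reached 0.31 (adjusted p = 0.0493) without IMQ replicate 2, the highest IMQ library. CRS was the one group whose libraries all lay below those of every other group.

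Ltc4s, at chr11:50236461-50238616 on the minus strand, encodes leukotriene C4 synthase. It had 4.95, 5.56 and 6.24 FPKM in CRS skin, against 18.4, 16.9 and 14.2 FPKM in control skin. Its mean was 2.96-fold lower in CRS skin, without overlap (log2 difference -1.41, SE 0.122, adjusted p = 0.000475, limma). CRS+IMQ skin had 4.06, 5.23 and 4.51 FPKM, against 3.95, 3.31 and 5.18 FPKM in IMQ skin. Those ranges overlapped, with a log2 difference of 0.13 (SE 0.157, adjusted p = 0.54, limma). Control skin was high and the other groups shared a low range, so Ltc4s lacked the high CRS+IMQ level seen for Alox5 and Alox5ap.

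The receptor gene Ltb4r1 lies at chr14:55765962-55768494 on the plus strand, next to Ltb4r2, the gene of the low-affinity leukotriene B4 receptor. Ltb4r1 had 5.91, 6.95 and 5.77 FPKM in CRS skin, against 18.4, 16.5 and 9.88 FPKM in control skin. Control replicate 3 was the lowest of its group, still above every CRS library, and the mean was 2.40-fold lower in CRS skin (log2 difference -1.10, SE 0.222, adjusted p = 0.00943, limma). In CRS+IMQ skin Ltb4r1 had 18.0, 15.4 and 16.5 FPKM, against 9.48, 10.4 and 10.1 FPKM in IMQ skin. The mean was 1.67-fold higher in CRS+IMQ skin without overlap (log2 difference 0.68, SE 0.0858, adjusted p = 0.00178, limma). The CRS+IMQ libraries lay within the control range, and CRS skin stood below all other groups.

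Of the 4 lipoxygenase genes Alox12, Alox12e, Alox15 and Alox8, Alox12e had the highest mean in every group. It lies at chr11:70315610-70322628 on the minus strand, between Alox12 and Alox15, and encodes the epidermal 12-lipoxygenase of mice. Alox12e had 13.4, 13.6 and 14.2 FPKM in CRS skin, against 125.6, 114.4 and 65.7 FPKM in control skin. The mean was 7.41-fold lower in CRS skin, without overlap (log2 difference -2.75, SE 0.241, adjusted p = 0.000491, limma). In CRS+IMQ skin it had 3.37, 3.31 and 3.12 FPKM, against 21.0, 23.6 and 22.6 FPKM in IMQ skin. The mean was 6.86-fold lower in CRS+IMQ skin (log2 difference -2.45, SE 0.0790, adjusted p = 1.74e-05, limma). No ranges overlapped between any of the 4 groups, and the order was control, IMQ, CRS and CRS+IMQ from high to low. Of the 7 genes tested, Alox12e was the one called lower with stress both without and during imiquimod.

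Alox12 lies at chr11:70241457-70255353 on the minus strand and encodes the platelet-type 12-lipoxygenase. It had 1.05, 1.25 and 0.942 FPKM in CRS skin, against 7.71, 6.67 and 3.81 FPKM in control skin. The mean was 5.61-fold lower in CRS skin and no library overlapped (log2 difference -1.72, SE 0.224, adjusted p = 0.00189, limma). CRS+IMQ skin had 2.74, 2.77 and 2.86 FPKM, against 1.97, 2.97 and 2.44 FPKM in IMQ skin. The CRS+IMQ libraries all fell inside the IMQ range, with a log2 difference of 0.14 (SE 0.121, adjusted p = 0.396, limma).

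Alox8 and Alox15 lay under the filter of 1 FPKM in 3 libraries throughout. Alox8, at chr11:69183932-69197843 on the minus strand, encodes the 8-lipoxygenase known from mouse skin. It had 0.111, 0.0750 and 0.302 FPKM in CRS+IMQ skin, against 1.03, 0.639 and 0.951 FPKM in IMQ skin, from an estimated 5.46 to 71.7 fragments per library in these groups. The groups did not overlap and the mean was 5.37-fold lower in CRS+IMQ skin. When genes with a mean of at least 0.1 FPKM were tested, the log2 difference was -0.69 with an SE of 0.121 and an adjusted p of 0.00902 (limma), and 12.9 percent of 20756 genes were lower under that filter. The tests of Alox8 and Alox15 under the lower filter were not repeated with the stressed groups as 1 sample. Alox8 had 0.240, 0.404 and 0.419 FPKM in CRS skin, against 0.419, 0.452 and 0.515 FPKM in control skin. The highest CRS library was only just below the lowest control library, and the log2 difference of -0.11 had an adjusted p of 0.337 (limma), with 21.2 percent of 20719 genes lower. IMQ skin held the highest Alox8 levels, and CRS+IMQ skin had the lowest mean, with a range that overlapped that of CRS skin.

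Alox15, at chr11:70344152-70352031 on the minus strand, encodes the 12/15-lipoxygenase of macrophages and eosinophils. It was listed at 0, 0.0215 and 0.0583 FPKM in CRS skin, against 0.493, 0.270 and 0.119 FPKM in control skin. In CRS+IMQ skin it was listed at 0, 0.0400 and 0.157 FPKM, against 0.103, 0.0584 and 0.186 FPKM in IMQ skin. These values stand for an estimated 24.3 fragments at most in any library. The CRS and control ranges did not overlap, but with the filter on a mean of 0.1 FPKM the log2 difference of -0.32 had an adjusted p of 0.0679 (limma) and was not called. The control values themselves ran over an estimated 6 to 24.3 fragments. The CRS+IMQ and IMQ ranges overlapped.

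The difference between the stress effect during imiquimod and the stress effect without it was tested as an interaction over all 12 libraries. The value is the CRS+IMQ minus IMQ difference less the CRS minus control difference, and any offset of a gene common to 1 deposited table cancels in it. It was positive and called for 6 of the 7 genes tested, beside 28.1 percent of 14864 genes called higher and 21.2 percent called lower, with a median of 1.79 over the 7 genes and 0.04 over all genes. Alox5ap had the largest value, 4.02 with an SE of 0.236 (adjusted p = 3.53e-07), and Alox5 had 2.99 with an SE of 0.170 (adjusted p = 2.75e-07). Alox5 reached 1 FPKM only in control and CRS+IMQ libraries, the groups that are added in this value. Its positive sign was thus set by its entry, and its value is a description. For Alox5, Alox5ap and Ltb4r1 both stress effects were called and opposite in sign, whereas for Ltc4s, Alox12 and Lta4h the effect during imiquimod was 0.13, 0.14 and 0.18 in that order and was not called. Alox12e had an interaction of 0.29 (SE 0.269, adjusted p = 0.391), which became 0.58 (adjusted p = 0.000963) without control replicate 3. In the test with the lower filter, Alox8 had a negative interaction of -0.57 (SE 0.146, adjusted p = 0.00958), where 17.1 percent of 20880 genes were lower. Alox15 had 0.26 there (adjusted p = 0.174).

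**Figure D2:**
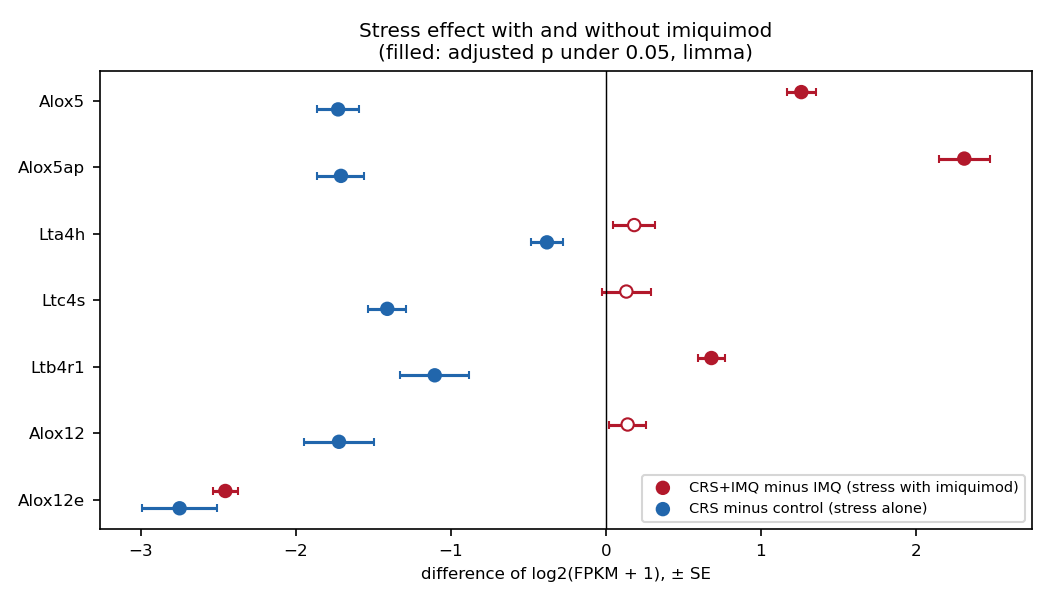
Difference of log2(FPKM + 1) with its SE for the 7 genes tested, during imiquimod (CRS+IMQ minus IMQ, red) and without it (CRS minus control, blue), with filled points for an adjusted p under 0.05. All 7 blue points lie below 0, and the red points of Alox5, Alox5ap and Ltb4r1 lie above 0 while that of Alox12e lies at -2.45.

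Averaging each stressed group to 1 sample kept the differences and reduced the calls. The direction of Alox5 was set by its entry in each comparison below, so its calls there remain a description. In CRS against control 4 genes stayed called, all lower: Alox5 (adjusted p = 0.0342), Alox5ap (0.0493), Ltc4s (0.0417) and Alox12e (0.0461). The background was then 4.34 percent of genes lower and 1.35 percent higher. Alox12 (adjusted p = 0.0771), Ltb4r1 (0.158) and Lta4h (0.259) were not called. In CRS+IMQ against IMQ, Alox5 (0.0239) and Alox5ap (0.0333) stayed higher and Alox12e (0.0158) stayed lower, beside 4.8 percent of genes higher and 1.07 percent lower, while Ltb4r1 had an adjusted p of 0.0959. The interaction stayed called for 5 genes, all but Lta4h (0.278) among the 6, beside 12.9 percent higher and 3.4 percent lower. These fits take the single stressed value to vary like the other groups.

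Imiquimod itself could be compared only across the deposited tables. CRS+IMQ and IMQ stood in 1 table and CRS and control in the other, so that an effect of the table and one of imiquimod cannot be told apart. These comparisons also share their groups with the stress comparisons above, so the values are given side by side and not as further evidence. In CRS+IMQ against CRS skin, 5 of the 7 genes were higher and 1 lower, beside 35 percent of 14021 genes higher and 25.9 percent lower. Alox5ap was 5.90-fold higher in CRS+IMQ skin (log2 difference 2.46, adjusted p = 3.53e-07, limma). Alox5, which entered through CRS+IMQ libraries alone, was 5.16-fold higher (1.32, adjusted p = 0.000111), Ltb4r1 2.68-fold, Alox12 2.58-fold and Lta4h 1.58-fold. Alox12e was 4.21-fold lower in CRS+IMQ skin (-1.79, adjusted p = 9.45e-07), and Ltc4s did not pass (-0.23, adjusted p = 0.103). With each stressed group as 1 sample, Alox5 (0.0177) and Alox5ap (0.0125) stayed called, beside 7.03 percent of genes higher and 1.49 percent lower.

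In IMQ against control skin, 5 of the 7 genes were lower and none was higher, beside 13.5 percent of 13981 genes lower and 6.11 percent higher. Alox5, which entered through control libraries alone, was 6.83-fold lower in IMQ skin (log2 difference -1.67, adjusted p = 0.000736, limma), Alox12e 4.55-fold (-2.08, adjusted p = 0.00241), Ltc4s 3.99-fold (-1.78, adjusted p = 0.00119), and Alox5ap 3.08-fold (-1.56, adjusted p = 0.00418). Alox12 was 2.46-fold lower (-0.99, adjusted p = 0.0319), a call lost without either of IMQ replicates 1 and 3 or control replicates 1 and 2, where the adjusted p ran up to 0.107. Ltb4r1 did not pass (-0.49, adjusted p = 0.164) but did without control replicate 3 (-0.75, adjusted p = 0.0108). Lta4h had a log2 difference of 0.03 (adjusted p = 0.924). Alox8, tested under the lower filter, had a log2 difference of 0.35 (adjusted p = 0.0909) with higher values in every IMQ library than in any control library.

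Other genes of the leukotriene pathway, 18 by a list of enzymes, transporters and receptors, were described the same way. In CRS against control, 12 of the 14 tested were lower and 2 higher, beside 28.4 percent lower and 15.3 percent higher over all genes, with a median log2 difference of -0.99. Of these 14, Ggt1 entered through CRS libraries alone and Ltb4r2 and Cysltr1 through control libraries alone, which set their direction. Ptgr1, which inactivates leukotriene B4, averaged 6.55 ± 0.346 FPKM in CRS skin and 31.1 ± 6.61 FPKM in control skin (SD, n = 3 each), with a log2 difference of -2.07 (adjusted p = 0.00036, limma). Cyp4f18, which oxidizes leukotriene B4 in mouse neutrophils, averaged 0.982 FPKM in CRS skin and 5.60 FPKM in control skin (-1.72, adjusted p = 0.000507). Cotl1, whose protein binds 5-lipoxygenase, averaged 19.6 FPKM in CRS skin and 56.4 FPKM in control skin (-1.47, adjusted p = 0.000329). Ggt1, a gamma-glutamyl transferase that acts on leukotriene C4, averaged 1.07 FPKM in CRS skin and 0.00328 FPKM in control skin, a description since CRS libraries alone brought it in. Mgst3, the other gene called higher, encodes a microsomal glutathione transferase and had a log2 difference of 0.69.

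During imiquimod, 9 of the 13 leukotriene genes tested were higher in CRS+IMQ skin and 1 was lower, beside 18.7 percent higher and 18.2 percent lower over all genes, with a median of 0.74. Ltb4r2 and Cysltr1 entered through CRS+IMQ libraries alone. Cotl1 averaged 143.7 ± 3.94 FPKM in CRS+IMQ skin and 25.4 ± 2.75 FPKM in IMQ skin (SD, n = 3 each), a log2 difference of 2.46 (adjusted p = 2.49e-05, limma). Dpep1 and Dpep2 encode dipeptidases, of the family that converts leukotriene D4 to E4, and were higher by 2.17 and 1.38. Cyp4f18 averaged 8.08 FPKM in CRS+IMQ skin and 1.08 FPKM in IMQ skin (2.14, adjusted p = 0.000172). The cysteinyl leukotriene receptor gene Cysltr1 had a log2 difference of 0.74 in CRS+IMQ against IMQ and -1.18 in CRS against control, with its direction set by entry in both. Pla2g4a, which encodes the phospholipase that releases arachidonic acid, had 0.48 and -1.16 in these comparisons, both called. The interaction was higher for 11 and lower for 2 of the 14 tested, beside 28.1 percent higher and 21.2 percent lower over all genes, led by Cotl1 (3.93), Cyp4f18 (3.86), Dpep2 (3.02) and Ptgr1 (3.26). Ltb4r2 and Cysltr1 reached 1 FPKM in no IMQ or CRS library, and Ggt1 in no control or CRS+IMQ library. The sign of their interaction was thus set by entry.

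The other lipoxygenase genes, a list of 13 that includes lipid epoxide hydrolases and receptors, contain the epidermal barrier lipoxygenases. In CRS against control, 7 of the 10 tested were lower and none higher, beside 28.4 percent lower and 15.3 percent higher over all genes, with a median of -1.56. Gpr132, Pnpla1 and Sdr9c7 entered through control libraries alone. Alox12b, which oxidizes ceramides of the skin barrier and neighbours Alox8 at chr11:69156989-69169792 on the plus strand, averaged 2.09 ± 0.353 FPKM in CRS skin and 46.1 ± 15.1 FPKM in control skin (SD, n = 3 each). Its log2 difference was -3.88 (adjusted p = 0.000221, limma), beside -2.37 for Aloxe3, the next enzyme of that route, -3.65 for Sdr9c7 and -2.36 for Ephx3, further genes of barrier lipid metabolism. In CRS+IMQ against IMQ, 7 of 12 were higher and 2 lower, beside 18.7 percent higher and 18.2 percent lower over all genes. Alox12b averaged 35.1 FPKM in CRS+IMQ skin and 15.8 FPKM in IMQ skin (1.12, adjusted p = 0.00132). Fpr2, a formyl peptide receptor that also binds lipoxin A4, averaged 16.5 FPKM in CRS+IMQ skin and 0.239 FPKM in IMQ skin. Gpr18, a lipid receptor gene, averaged 2.31 FPKM in CRS+IMQ skin and 0.273 FPKM in IMQ skin. CRS+IMQ libraries alone brought both of these genes in, so their values are a description. The interaction was higher for 9 and lower for 2 of 12, beside 28.1 percent higher and 21.2 percent lower over all genes, the lower ones being Ephx1 and Gpx4. Fpr2 and Gpr18 reached 1 FPKM in no IMQ or CRS library, which set the sign of their interaction. With each stressed group as 1 sample, fewer genes of both lists were called. The median log2 differences of the leukotriene list were then -0.99 in CRS against control and 0.74 in CRS+IMQ against IMQ. Those of the lipoxygenase list were -1.56 and 0.53.

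**Figure D3:**
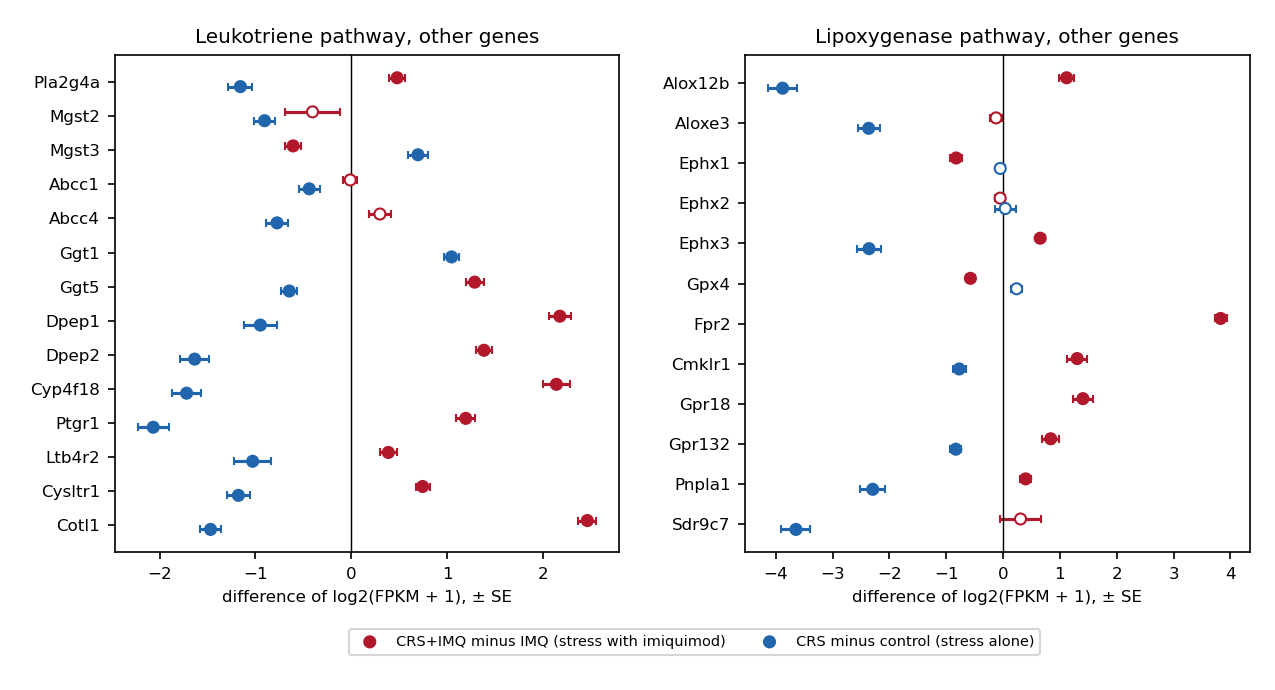
Difference of log2(FPKM + 1) with its SE for the other genes of the pathway that were tested, during imiquimod (CRS+IMQ minus IMQ, red) and without it (CRS minus control, blue), with filled points for an adjusted p under 0.05. Most genes have a red point above 0 and a blue point below 0, such as Cyp4f18 at 2.14 and -1.72, whereas Aloxe3 has a red point near 0.

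Across the imiquimod comparisons, 12 of 14 leukotriene genes were higher and 2 lower in CRS+IMQ against CRS, beside 35 percent higher and 25.9 percent lower over all genes, and 9 of 13 were lower in IMQ against control, beside 13.5 percent. For the lipoxygenase list, 9 of 12 were higher and 3 lower in CRS+IMQ against CRS, and 6 of 10 were lower in IMQ against control, beside the same shares. With each stressed group as 1 sample, fewer genes of both lists were called in CRS+IMQ against CRS. The median log2 differences were then 0.90 for the leukotriene list and 1.49 for the lipoxygenase list. In CRS+IMQ against CRS, 3 of the 14 leukotriene genes and 5 of the 12 lipoxygenase genes tested entered through 1 group alone, Fpr2 and Pnpla1 among them. In IMQ against control, 2 of the 13 leukotriene genes tested, Ltb4r2 and Cysltr1, entered through control libraries alone, which set their direction. None of the 10 lipoxygenase genes tested there entered through 1 group alone. The named genes with the smallest p in CRS+IMQ against CRS were Cotl1 (2.81), Ptgr1 (2.48), Dpep1 (1.46), Cyp4f18 (2.20), Fpr2 (3.81), Alox12b (3.55), Pnpla1 (2.04) and Ephx3 (1.92), as log2 differences. In IMQ against control they were Dpep2 (-1.73), Ggt5 (-0.99), Cyp4f18 (-1.66), Dpep1 (-1.66), Cmklr1 (-1.65), Alox12b (-1.45), Gpr132 (-0.76) and Ephx3 (-1.09).

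Markers of the cell types that hold these genes moved as well. The 10 macrophage markers summed to 2793 to 2811 FPKM in CRS+IMQ libraries, against 349 to 495 FPKM in IMQ libraries, and to 367 to 386 FPKM in CRS libraries, against 2919 to 4597 FPKM in control libraries. These are also the groups in which Alox5 and Alox5ap were high and low, and 9 of 10 macrophage markers were higher and 1 lower in CRS+IMQ against IMQ, and 10 of 10 lower in CRS against control, beside 18.7 percent higher and 18.2 percent lower over all genes in the first comparison and 28.4 percent lower and 15.3 percent higher in the second. Lyz2 led the sum in CRS+IMQ skin, with 1657 FPKM on average, and Retnla led it in control skin, with 1524 FPKM. Retnla, the marker lower in CRS+IMQ against IMQ, averaged 3.08 FPKM in CRS+IMQ skin and 48.7 FPKM in IMQ skin. The 10 neutrophil markers summed to 196 to 228 FPKM in CRS+IMQ libraries, against 2.49 to 10.7 FPKM in IMQ libraries, and to 14.1 to 20.02 FPKM in CRS libraries, against 3.73 to 5.10 FPKM in control libraries, where Ly6g and Mpo were listed at 0. In CRS against control the list split. Ngp averaged 8.51 FPKM in CRS skin and 0.0133 FPKM in control skin, and Camp 3.27 FPKM in CRS skin and 0.123 FPKM in control skin, whereas the receptor gene Csf3r averaged 0.783 FPKM in CRS skin and 3.19 FPKM in control skin and was called lower (log2 difference -1.23). In this comparison Ngp and Camp entered through CRS libraries alone and Csf3r through control libraries alone. Their directions were set by entry, so the split of these genes is a description. The 9 mast cell markers summed to 336 to 340 FPKM in CRS+IMQ skin, against 65.2 to 99.96 FPKM in IMQ skin, and to 132 to 152 FPKM in CRS skin, against 121 to 188 FPKM in control skin, and only the first pair of ranges was apart. The part of these cells in the differences of Alox5, Alox5ap, Lta4h, Ltc4s and Ltb4r1 was not tested.

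**Figure D4:**
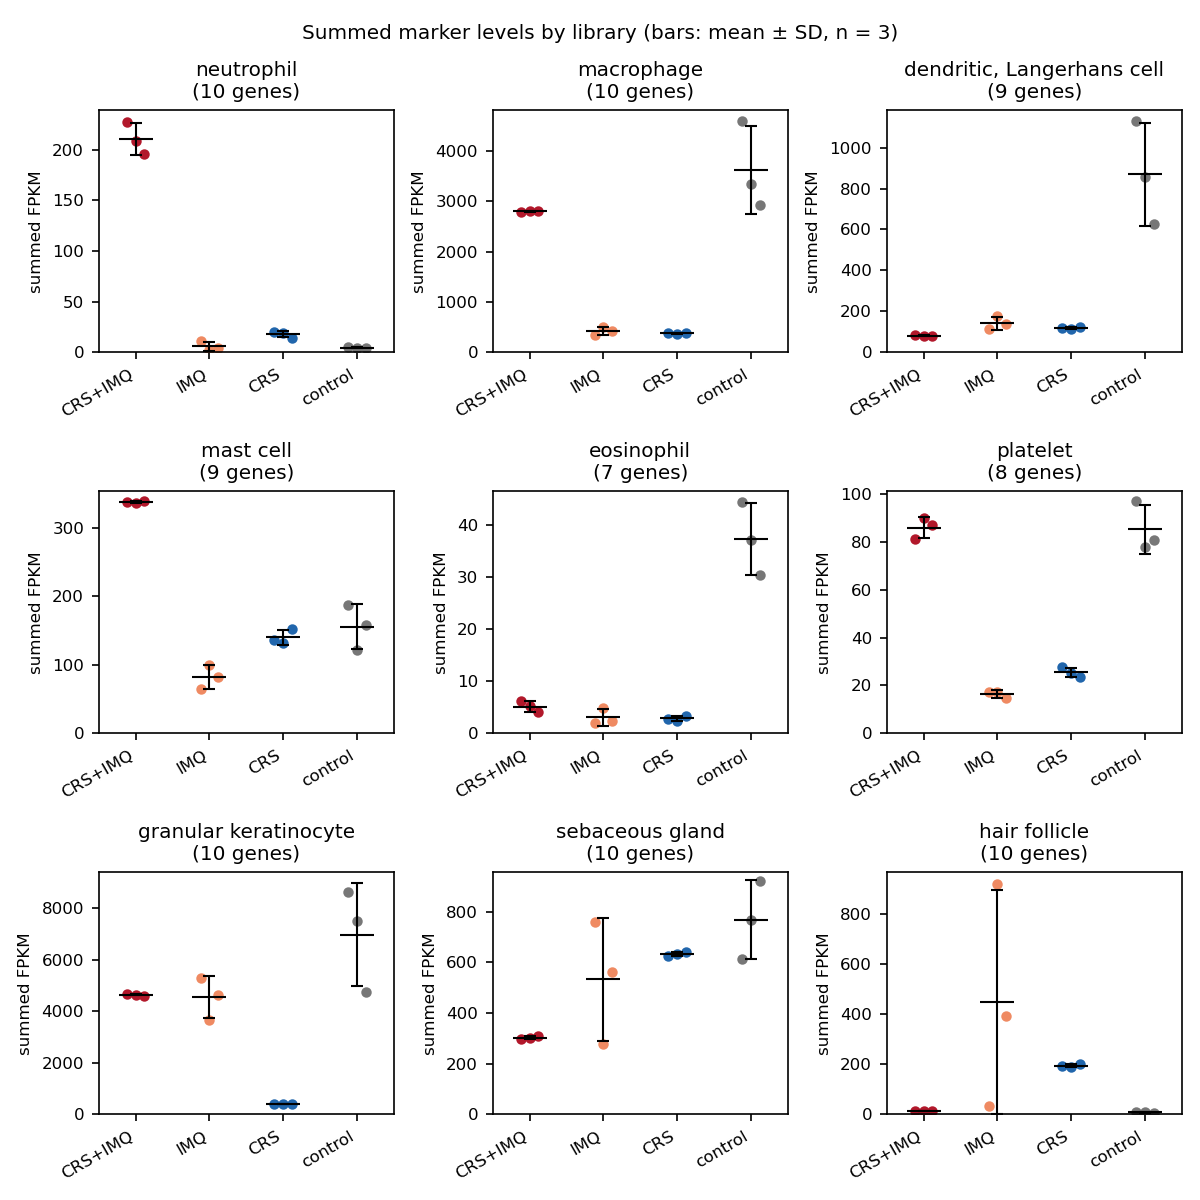
Summed FPKM of 9 marker lists in each library, with the mean and SD of 3 libraries and linear axes from 0. The macrophage sum is high in CRS+IMQ and control skin, the neutrophil sum is at least 196 FPKM in CRS+IMQ skin and at most 20.02 FPKM elsewhere, and the granular keratinocyte sum is at most 402 FPKM in CRS skin.

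The dendritic and Langerhans cell markers, led by Cd74, summed to 78.2 to 82.9 FPKM in CRS+IMQ skin, against 112 to 175 FPKM in IMQ skin, and to 114 to 122 FPKM in CRS skin, against 626 to 1130 FPKM in control skin. Ltc4s, like this sum and the eosinophil sum, was high in control skin alone. Single markers of the dendritic list differed. H2-Aa averaged 14.4 FPKM in CRS+IMQ, 28.9 in IMQ, 22.8 in CRS and 150.4 in control skin. Zbtb46 averaged 0.807 FPKM in CRS+IMQ, 0.697 in IMQ, 0.787 in CRS and 0.793 in control skin. The part of these cells in the Ltc4s differences was not tested. The eosinophil list was led by Ear2, with 30.5 to 44.4 FPKM in control skin and at most 6.14 FPKM elsewhere, while the defining eosinophil gene Epx averaged at most 0.0174 FPKM in any group. Platelet markers summed to 81.3 to 90.0 FPKM in CRS+IMQ skin, against 14.6 to 17.5 FPKM in IMQ skin, and to 23.6 to 27.6 FPKM in CRS skin, against 78.0 to 97.2 FPKM in control skin. This sum was mostly Pf4, and the defining platelet gene Itga2b averaged 1.98 FPKM in CRS+IMQ skin, 1.42 FPKM in IMQ skin, 1.45 FPKM in CRS skin and 1.47 FPKM in control skin.

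For the epidermal genes Alox12, Alox12e and Alox8, the granular keratinocyte markers summed to 4613 to 4668 FPKM in CRS+IMQ skin, against 3679 to 5311 FPKM in IMQ skin, and to 384 to 402 FPKM in CRS skin, against 4766 to 8654 FPKM in control skin. The sum, most of it Krt1 and Krt10 in imiquimod skin, overlapped between CRS+IMQ and IMQ, but 3 of its 7 markers tested were lower in CRS+IMQ skin and none was higher, beside 18.2 percent lower and 18.7 percent higher over all genes. Lor averaged 252.6 FPKM in CRS+IMQ skin and 696.9 FPKM in IMQ skin. In CRS against control 8 of 9 granular markers tested were lower, beside 28.4 percent. Of these 9, Flg averaged 0.966 ± 0.0230 FPKM in CRS skin (SD, n = 3) and 17.9 FPKM in control skin. Control libraries alone brought it in, which set its direction. Basal keratinocyte markers, mostly Krt14 and Krt5, averaged 10680 ± 76.2 FPKM as a sum in CRS+IMQ skin and 4340 ± 858 FPKM in IMQ skin, and 3094 ± 91.8 FPKM in CRS skin and 5511 ± 1154 FPKM in control skin (SD, n = 3 each). Control replicate 3 was the lowest control library for these markers and for Alox12, Alox12e and Ltb4r1. Sebaceous markers summed to 296 to 310 FPKM in CRS+IMQ skin, against 276 to 759 FPKM in IMQ skin, and to 627 to 641 FPKM in CRS skin, against 614 to 924 FPKM in control skin, and both pairs of ranges overlapped. That sum was mostly Scd1. By gene, 6 of 8 sebaceous markers tested were lower in CRS+IMQ against IMQ, beside 18.2 percent of all genes. In CRS against control 6 of 9 were lower, beside 28.4 percent. Alox12e was lower in both comparisons, and no sebaceous marker was called higher. The sizes differed in CRS against control, with a log2 difference of -2.75 for Alox12e and a sebaceous median of -0.44. Elovl3 had the higher mean in CRS skin there, 50.3 FPKM against 44.7 FPKM in control skin. In CRS+IMQ against IMQ the values were -2.45 for Alox12e and a sebaceous median of -1.50. Scd3, Mc5r and Awat2 reached 1 FPKM in no CRS+IMQ library, so where tested against IMQ their direction was set by entry. Awat1 averaged 0.827 FPKM in CRS+IMQ skin and 19.9 FPKM in IMQ skin, and Elovl3 averaged 4.86 FPKM in CRS+IMQ skin and 59.1 FPKM in IMQ skin. follicle markers summed to 10.8 to 13.9 FPKM in CRS+IMQ skin, against 32.8 to 919 FPKM in IMQ skin, and to 188 to 200 FPKM in CRS skin, against 6.49 to 10.1 FPKM in control skin. The part of these cell types in the differences of the lipoxygenases was not tested.

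The most similar profiles over the 12 libraries were found by Pearson correlation of log2(FPKM + 1) with 13908 other genes, for the most abundant gene of each role. The libraries fall into 4 groups, so these correlations describe the group pattern. For Alox5ap they were Spi1 (r = 0.997), which encodes a myeloid transcription factor, Tyrobp (0.996), which encodes an adaptor of myeloid receptors, and Slc39a1 (0.996), a zinc transporter gene. For Ltb4r1 they were Acap2 (0.993), Sdc1 (0.987), which encodes syndecan, and Prr13 (0.982). For Alox12e they were Hs3st6 (0.997), a heparan sulfate sulfotransferase gene, Srcin1 (0.994) and Faah (0.992), the fatty acid amide hydrolase gene.

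The authors' deposited table gave its own fold changes and q-values for the stress comparisons. In that table for CRS against control, q was 1.23e-27 for Alox12e, 7.57e-15 for Alox5, 1.21e-12 for Alox5ap, 1.52e-12 for Alox12, 4.70e-06 for Ltc4s and 0.000653 for Ltb4r1, and 0.281 for Lta4h. In the authors' deposited table for CRS+IMQ against IMQ, q was 2.45e-29 for Alox12e, 1.75e-26 for Alox5ap, 1.46e-11 for Alox5, 0.000176 for Alox8 and 0.00633 for Ltb4r1, the last of which was not marked significant there. Lta4h, the one gene called here and not in the authors' deposited table for CRS against control, is also the one whose call was lost under other scalings.

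Reads of these genes could be told from those of their relatives for the most part. In 50-base words of the annotated transcripts, Alox5, Alox5ap, Lta4h, Ltc4s, Ltb4r1, Alox12e and Alox15 shared 0 words in sense with any other gene, Alox12 shared 10 of 4036 and Alox8 61 of 3631. Antisense genes overlap Alox5ap (Gm19719, 6.8 percent of words) and Ltc4s (Gm26542, 15.2 percent). Strand use in counting was not stated, so reads of these pairs cannot be told apart. The antisense genes were listed at 0.0322 to 0.52 FPKM and 0.112 to 0.69 FPKM over the 12 libraries, values under the same limit. Gm19719 was highest in CRS+IMQ skin (0.353 to 0.52 FPKM), as was Alox5ap. Gm26542 was highest in control skin (0.472 to 0.69 FPKM), as was Ltc4s.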

How the data were processed

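The 9 genes and all lists were chosen with earlier results of these data known. RNA from dorsal skin was prepared with TRIzol, and a NovaSeq was used for sequencing, per the labels. The submitters' processing notes name StringTie, edgeR, limma and the build mm10, with no aligner among them, and what edgeR and limma were used for is not stated. The authors deposited 2 tables with an FPKM value for each gene and library. Further columns give, per the file headers, a fold change (ratio), a log2 fold change, and p-values and q-values of the authors. Deposited FPKM values at or under 0.0001 were read as 0. Counts of reads were not used here, so library totals were estimated from low FPKM values and gene length, and 35.6 to 40.5 percent of those values came within 0.05 of a whole fragment.

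A gene was kept where 3 or more libraries of the comparison reached 1 FPKM. In R 4.3.3, limma 3.58.1 with statmod 1.5.0 was run on log2(FPKM + 1) with trended, robust empirical Bayes variances, over the 6 libraries of a comparison or on all 12 for the interaction. With stressed groups as 1 sample, CRS+IMQ against CRS was fitted with all 4 groups. IMQ and control libraries alone then gave its spread. The p-values are two-sided, and calls have a Benjamini-Hochberg adjusted p under 0.05. Whether samples came from separate animals is not stated, so the p-values reflect the spread between samples alone, and that spread may be technical. An exact test of 3 against 3 cannot go below p = 0.1, and calls rest on limma's variance model. The code was tested on simulated data. Alternatives were median-ratio and quantile scaling, pseudocounts of 0.1 and 0.5, a filter on a mean of 0.1 FPKM or none, a replicate block, all 12 libraries in 1 fit, 1 variance per group, stressed groups as 1 sample, and each library left out.

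All 9 genes are named in the stress comparisons. Of the other pathway lists, up to 4 genes per list and comparison with the smallest p among those called are named, and Mgst3, Cysltr1, Pla2g4a, Ephx1 and Gpx4 were added after their values were seen. The symbol Dpep2 occurs more than once, and the row with the higher mean was used. Positions are on mm10 from GENCODE M21, and promoters are from RefSeq on GRCm38.p6.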

Additional observations from a re-analysis of the deposited data

Results flagged for a closer look

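The stress effect during imiquimod (CRS+IMQ minus IMQ) differed from the stress effect without it (CRS minus control) for 6 of the 7 genes tested, by the interaction term of limma with Benjamini-Hochberg adjustment over 14864 genes. On the log2 scale the difference of effects was 2.99 for Alox5, 4.02 for Alox5ap and 1.79 for Ltb4r1, whose effects were opposite in sign. For Alox5 the sign was set by its entry through control and CRS+IMQ libraries alone. It was 1.54 for Ltc4s, 1.86 for Alox12 and 0.56 for Lta4h (adjusted p = 0.0213), for which the effect was called without imiquimod only. The Lta4h value was not called without CRS replicate 1 (adjusted p = 0.0501). Background shares stand beside the interaction in the results.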

How the results depend on the processing

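With each stressed group as 1 sample, 4 of the 9 genes were called in CRS against control and 2 in CRS+IMQ against CRS, and over all genes 793, 820, 1194 and 2417 were called in CRS against control, CRS+IMQ against IMQ, CRS+IMQ against CRS and the interaction, against 6086, 5162, 8536 and 7325 with 3 samples each. IMQ against control had 2735 calls over all genes, and 5107 with all 12 libraries in 1 fit, which share one spread. Leaving out 1 library gave 3427 (without CRS+IMQ replicate 2) to 6156 calls in CRS+IMQ against IMQ and 1329 (without IMQ replicate 3) to 2815 in IMQ against control, with 1578 and 1482 without control replicates 1 and 2.

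Of the single-gene values, 320 kept their direction and side of the threshold over alternatives that kept all libraries, 14 lost a call and 2 gained one. With 1 library left out, 238 kept both, 9 lost a call, 3 gained one and 2 turned sign. Both turned values were Lta4h in IMQ against control, which ran from -0.0968 without IMQ replicate 2, with -0.0565 without control replicate 3, to 0.147 without IMQ replicate 1 and was never called. The Lta4h call in CRS against control was lost in 9 settings, with adjusted p from 0.0555 to 0.259. Ltc4s in CRS+IMQ against CRS was called under median-ratio (-0.30, adjusted p = 0.0483) and quantile scaling (-0.36, adjusted p = 0.025). The cause of these changes was not tested.

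Scaling moved the split of calls over all genes: the share higher in CRS against control was 35 percent, 47.8 percent with median-ratio and 56.2 percent with quantile scaling, and in quantile scaling 44.1 percent in IMQ against control (31.2), 43.2 in CRS+IMQ against CRS (57.5) and 43.2 in the interaction (57). The median of all genes was -0.13 in the interaction under quantile scaling, against 0.04.

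The replicate numbers gave no pairing: same-numbered libraries correlated by -0.113 to 0.0252. With the replicate block, 6 of the 7 genes tested were called in CRS against control (Lta4h lost, adjusted p = 0.0815, limma). There were 4 in CRS+IMQ against IMQ, 5 in IMQ against control, 6 in CRS+IMQ against CRS and 6 in the interaction. Over all genes the block called 4811 of 13944, 3974 of 13981, 2049 of 13981, 7882 of 14021 and 7062 of 14864 in that order. Alox15 rests on at most 24.3 and Alox8 on at most 71.7 estimated fragments per library.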

Other observations

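The balance of the pathway is described by ratios that were chosen after the values were seen, without a test. The ratio of Lta4h to Ltc4s FPKM, the hydrolase that forms leukotriene B4 over the synthase of the cysteinyl branch, was 2.21 ± 0.319 in CRS+IMQ skin, 2.22 ± 0.827 in IMQ skin, 1.14 ± 0.0650 in CRS skin and 0.518 ± 0.00768 in control skin (SD, n = 3 each). Control libraries had the lowest ratios and did not overlap with any other group. The ratio of Alox5ap to Alox5 was 24.5 in CRS+IMQ skin, 21.9 in IMQ skin, 22.7 in CRS skin and 10.0 in control skin.

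Alox12e made up 52.0 ± 3.09 percent of the summed FPKM of Alox12, Alox12e, Alox15 and Alox8 in CRS+IMQ skin, 86.7 ± 0.384 percent in IMQ skin, 90.4 ± 1.15 percent in CRS skin and 93.7 ± 0.184 percent in control skin. The sum itself averaged 6.29 FPKM in CRS+IMQ skin, 25.9 FPKM in IMQ skin, 15.2 FPKM in CRS skin and 108.7 FPKM in control skin.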
